A study of Mus musculus with 12 samples.

Results

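Genes of megakaryocytes and platelets were followed here through blood stem and progenitor cells of the mouse, 9 in all: Pf4, Vwf, Thbs1, Itga2b, Itgb3, Gp1bb, Gp5, Gp9 and Treml1. They were chosen by symbol, and all 9 were found in both count tables, among 24538 genes. LSK cells, the lineage-negative marrow fraction positive for Sca-1 and Kit, and cells that the sample descriptions call MPP (multipotent progenitor) but their titles call Lin were sorted from the marrow of wild-type (WT), Tet2 KO and Tet2 Mut mice. Tet2 oxidises methylated cytosine in DNA, and Mut is known from the study as a form without this catalytic activity. All mice were 10 weeks old and of a mixed 129/C57/B6 background. Marrow of 2 mice per genotype was pooled and sequenced as technical replicates, 2 per population, which gives 12 libraries in 6 groups. Every error and p-value below therefore carries only the variation of libraries made from 1 pool, with none from animal to animal.

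Megakaryocytes are the marrow cells that shed platelets. Platelets hold to injured vessels when the GPIb-IX-V complex on their surface binds von Willebrand factor, and to each other when the integrin made of the subunits encoded by Itga2b (CD41) and Itgb3 (CD61) binds fibrinogen. Alpha granules store proteins that are released on activation, among them platelet factor 4, von Willebrand factor and thrombospondin 1. Several of these genes are already transcribed in blood stem cells, and Itga2b and Vwf are used as marks of stem cells biased towards platelets.

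Libraries held from 9181027 to 23532847 gene counts. Levels are CPM (counts relative to the library's total) on TMM-scaled library sizes, and where no count was found the floor of 3 counts is worth 0.135 to 0.317 CPM, for counting error only. The LSK WT libraries stood apart, with 12470 and 12614 genes detected against 13333 to 14264 in the other 10, and with r = 0.843 between their log2 CPM across 12513 genes against 0.947 to 0.962 within the other groups. Tet2 was at 87.2 and 62.6 CPM in LSK WT, 29.2 and 31.7 in LSK KO, 43.4 and 44.3 in LSK Mut, and between 29.4 and 40.1 in all 6 MPP libraries, so that its count did not separate the library labels in MPP. Markers of the gates were lower in the cells labelled MPP: Ly6a, which encodes Sca-1, averaged 10.4 to 20.3 CPM there against 75.8 to 156 in LSK, Kit 180 to 262 against 534 to 594, and Flt3, a receptor of early multipotent progenitors, 88.8 to 117 against 735 to 1096. The MPP libraries also held more RNA of erythroid (summed list, 3365 to 5807 against 1094 to 1366 CPM) and of macrophage and monocyte markers (1746 to 2168 against 72.3 to 217 CPM), most of the latter from Ly6c2.

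Promoters of the 3 members whose level differed past the threshold between LSK and MPP cells in a genotype (Pf4, Gp9 and Treml1), and of Gp5, with 3 motif matches the most among the members in the table, are shown first. GATA1 and ETS-family factors such as FLI1 are known regulators of megakaryocyte genes, so the 250 bases before each transcription start were searched on both strands. The letters sought for GATA factors were AGATAA, with the variant that begins with a T counted too and spelled TGATAA. Those sought for ETS factors were GGAAGT. No matches overlapped. Matches are in capitals, and a match on the reverse strand is printed as its reverse complement. Sequences are from RefSeq on GRCm38.p6, written 5′ to 3′ on the gene's strand.
Pf4, chr5:90772185-90772434, plus strand: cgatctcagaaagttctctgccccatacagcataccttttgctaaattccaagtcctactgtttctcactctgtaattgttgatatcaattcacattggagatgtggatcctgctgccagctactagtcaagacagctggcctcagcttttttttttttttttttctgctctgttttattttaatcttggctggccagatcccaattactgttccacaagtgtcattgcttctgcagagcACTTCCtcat
Gp9, chr6:87777820-87778069, plus strand: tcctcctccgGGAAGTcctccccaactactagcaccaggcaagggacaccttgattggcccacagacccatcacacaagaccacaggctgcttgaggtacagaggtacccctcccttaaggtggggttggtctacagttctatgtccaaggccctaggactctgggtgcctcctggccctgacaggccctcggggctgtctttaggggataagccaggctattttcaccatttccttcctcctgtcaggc
Treml1, chr17:48359666-48359915, plus strand: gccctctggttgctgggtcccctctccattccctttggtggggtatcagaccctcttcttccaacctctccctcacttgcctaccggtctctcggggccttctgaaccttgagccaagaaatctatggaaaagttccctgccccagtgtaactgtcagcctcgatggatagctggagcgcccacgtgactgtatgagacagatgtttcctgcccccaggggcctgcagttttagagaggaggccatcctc
Gp5, chr16:30310782-30311031, minus strand: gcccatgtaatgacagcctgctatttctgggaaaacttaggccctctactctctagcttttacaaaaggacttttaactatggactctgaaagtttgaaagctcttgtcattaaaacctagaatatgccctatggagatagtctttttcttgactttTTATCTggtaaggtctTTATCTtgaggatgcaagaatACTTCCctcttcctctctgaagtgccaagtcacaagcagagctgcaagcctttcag
The ETS letters ended 5 bases before the start of Pf4 and 51 bases before that of Gp5, and began 240 bases before that of Gp9. The Gp5 promoter also held 2 GATA matches, beginning 93 and 77 bases before the start. Of the 6 members with an entry in the table, 4 held the ETS letters, the fourth being Itga2b, and 1 held the GATA letters. By the GENCODE M21 annotation, 180 of the 250 bases of the Itga2b window and all 250 of the Gp1bb window lie in exons. The Itga2b window lies mostly inside the gene as annotated there, so its match is not upstream of that gene by this annotation. Among all 32851 promoters of the table, 19.7% held the ETS letters and 16.6% the GATA letters in a window of this length.

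Levels of different genes were compared per kilobase of exon (CPM per kb, on the GENCODE M21 annotation of GRCm38). Pf4, a chemokine of alpha granules, had the highest level in each of the 6 groups, from 41.1 ± 7.85 CPM per kb in MPP KO to 194.9 ± 45.0 in LSK WT (SD, n = 2). Itga2b came next in every group, at 32.1 to 51.1 CPM per kb, and then Gp9, at 11.2 to 42.4. In LSK WT the libraries of Itga2b and Gp9 overlapped, so that their order there is not settled by these libraries, whereas in the other 5 groups they did not. Treml1, Gp5 and Itgb3 lay between 1.48 and 17.4 CPM per kb. Gp1bb, Vwf and Thbs1 had the lowest levels in 5 groups, at most 1.49 CPM per kb, and in MPP KO Thbs1 stood above them at 2.88 ± 0.524. The place of Gp1bb is uncertain, since its count was divided by all its exon bases, of which Sept5 shares 91.1% on the same strand. Of the 48 pairs of neighbours in these 6 orders, 17 had overlapping libraries. Ppbp, an abundant chemokine gene of platelets, was at 0 counts in 5 of the 6 MPP libraries and at most at 2.23 CPM in LSK, and Gp6, the collagen receptor of platelets, had 0 counts in all 12 libraries.

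**Figure D1:**
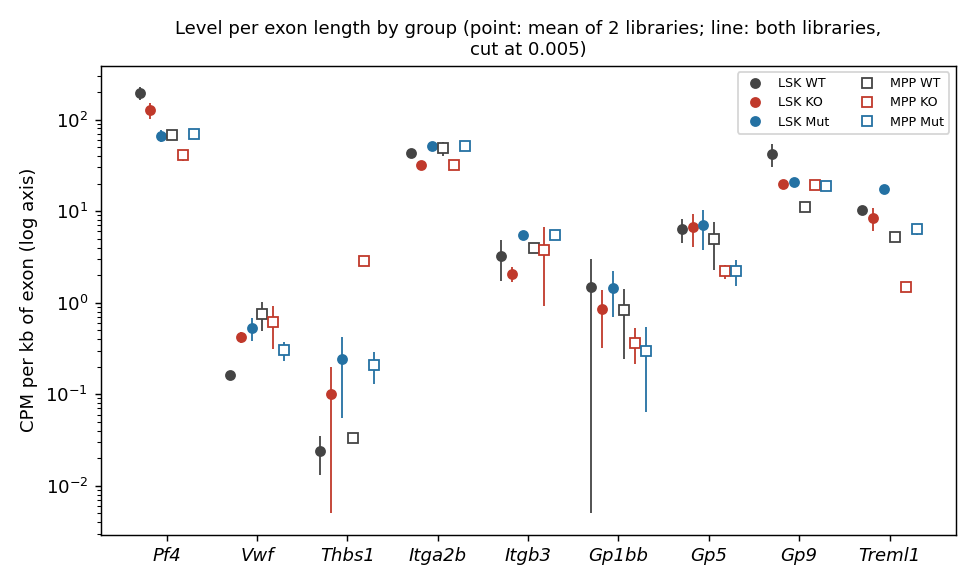
Level of the 9 genes in CPM per kb of exon (log axis) in the 6 groups. Points are means of 2 libraries and lines join both libraries, cut at 0.005. Pf4, Itga2b and Gp9 lie above the other genes in every group, and Thbs1 stands out in MPP KO at 2.88.

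Among the granule proteins, Pf4 (chromosome 5, 90772435 to 90773383) differed most in CPM between LSK groups. It was at 117.5 and 163.5 CPM in the LSK WT libraries, 108 and 73.7 in LSK KO and 40.8 and 55.0 in LSK Mut. In MPP cells it was at 43.8 and 53.0 CPM in WT, 25.6 and 33.6 in KO and 52.6 and 46.8 in Mut. The LSK groups thus did not overlap and ran in the order WT, KO, Mut, and LSK Mut lay at the level of MPP WT and MPP Mut. MPP KO lay below the other 5 groups.

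Vwf (chromosome 6, 125546774 to 125686679), which encodes the plasma protein that tethers platelets to vessel walls, was at 2.85 and 2.39 CPM in LSK WT, 7.68 and 5.82 in LSK KO and 10.9 and 6.10 in LSK Mut. Its level in MPP cells was 16.5 and 7.90 CPM in WT, 5.003 and 14.7 in KO and 5.98 and 3.75 in Mut. LSK WT was below every other group, while LSK KO and LSK Mut overlapped with each other and with MPP KO.

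Thbs1 (chromosome 2, 118111876 to 118127133) encodes thrombospondin 1, an adhesive glycoprotein that macrophages, endothelial cells and fibroblasts also make. It was at or under the floor of 3 counts in LSK WT (2 and 1 counts) and in MPP WT (3 and 2 counts). LSK KO had 22 and 0 counts. LSK Mut had 6 and 48 counts and MPP Mut 39 and 12. MPP KO stood apart with 207 and 253 counts, or 15.2 and 19.7 CPM.

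The integrin subunits differed in how well libraries agreed. Itga2b (chromosome 11, 102453297 to 102470122, minus strand) was at 226 and 249 CPM in LSK WT, 189.6 and 160.3 in LSK KO and 287 and 271 in LSK Mut. Its level in MPP cells was 219 and 308 CPM in WT, 171.5 and 178 in KO and 277 and 278 in Mut. The 4 KO libraries were thus below all 8 others, and the means of LSK and MPP cells were 238 and 264 CPM in WT, 175 and 175 in KO and 279 and 278 in Mut. Itgb3 (chromosome 11, 104608000 to 104670476) was at 10.1 and 28.2 CPM in LSK WT, 9.997 and 14.5 in LSK KO and 34.3 and 29.9 in LSK Mut. In MPP cells it was at 24.0 and 23.1 CPM in WT, 39.3 and 5.38 in KO and 32.4 and 32.2 in Mut. The MPP KO libraries differed 7.30-fold from each other, whereas those of Mut differed at most 1.15-fold in either population.

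The GPIb-IX-V genes encode leucine-rich repeat proteins of the receptor for von Willebrand factor. Gp9 (chromosome 6, 87778072 to 87779768) was at 26.5 and 48.1 CPM in LSK WT, 18.4 and 16.7 in LSK KO and 16.8 and 19.8 in LSK Mut. The MPP libraries had it at 8.99 and 10.7 CPM in WT, 19.0 and 15.4 in KO and 17.5 and 15.6 in Mut. LSK WT was thus the highest and MPP WT the lowest group, and the 8 KO and Mut libraries lay close together between them.

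Gp5 (chromosome 16, 30307685 to 30310779, minus strand) was at 9.81 and 18.2 CPM in LSK WT, 9.003 and 20.3 in LSK KO and 8.17 and 22.5 in LSK Mut. The MPP libraries had it at 16.8 and 5.002 CPM in WT, 5.74 and 3.98 in KO and 3.37 and 6.38 in Mut. The LSK groups overlapped fully, and replicates of a group differed 1.44-fold to 3.37-fold. Gp1bb (chromosome 16, 18620317 to 18622403, minus strand) was the sparsest of the complex, with 0 and 78 counts in LSK WT, 12 and 40 in LSK KO, 26 and 85 in LSK Mut, 44 and 5 in MPP WT, 6 and 14 in MPP KO and 3 and 17 in MPP Mut. No pair of genotype groups was separated within a population. Sept5 lies on the same strand and shares 91.1% of the exon bases of Gp1bb, so how reads were divided between these genes is uncertain. Over the 12 libraries, log2(CPM + 1) of Gp1bb and Gp5 correlated at r = 0.793, the highest r of any pair of members. Gp9 of the same complex correlated at r = 0.251 with Gp1bb and r = 0.271 with Gp5. Each r is a description over libraries that share pools and populations.

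Treml1 (chromosome 17, 48359916 to 48367176) encodes a receptor of the alpha granule membrane that reaches the platelet surface on activation. It was at 14.4 and 14.3 CPM in LSK WT, 15.4 and 8.47 in LSK KO and 22.8 and 26.0 in LSK Mut. In MPP cells it was at 7.26 and 7.30 CPM in WT, 2.28 and 1.87 in KO and 10.1 and 7.63 in Mut. Each LSK library was above the libraries of the same genotype in MPP, LSK Mut was the highest group and MPP KO the lowest.

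**Figure D2:**
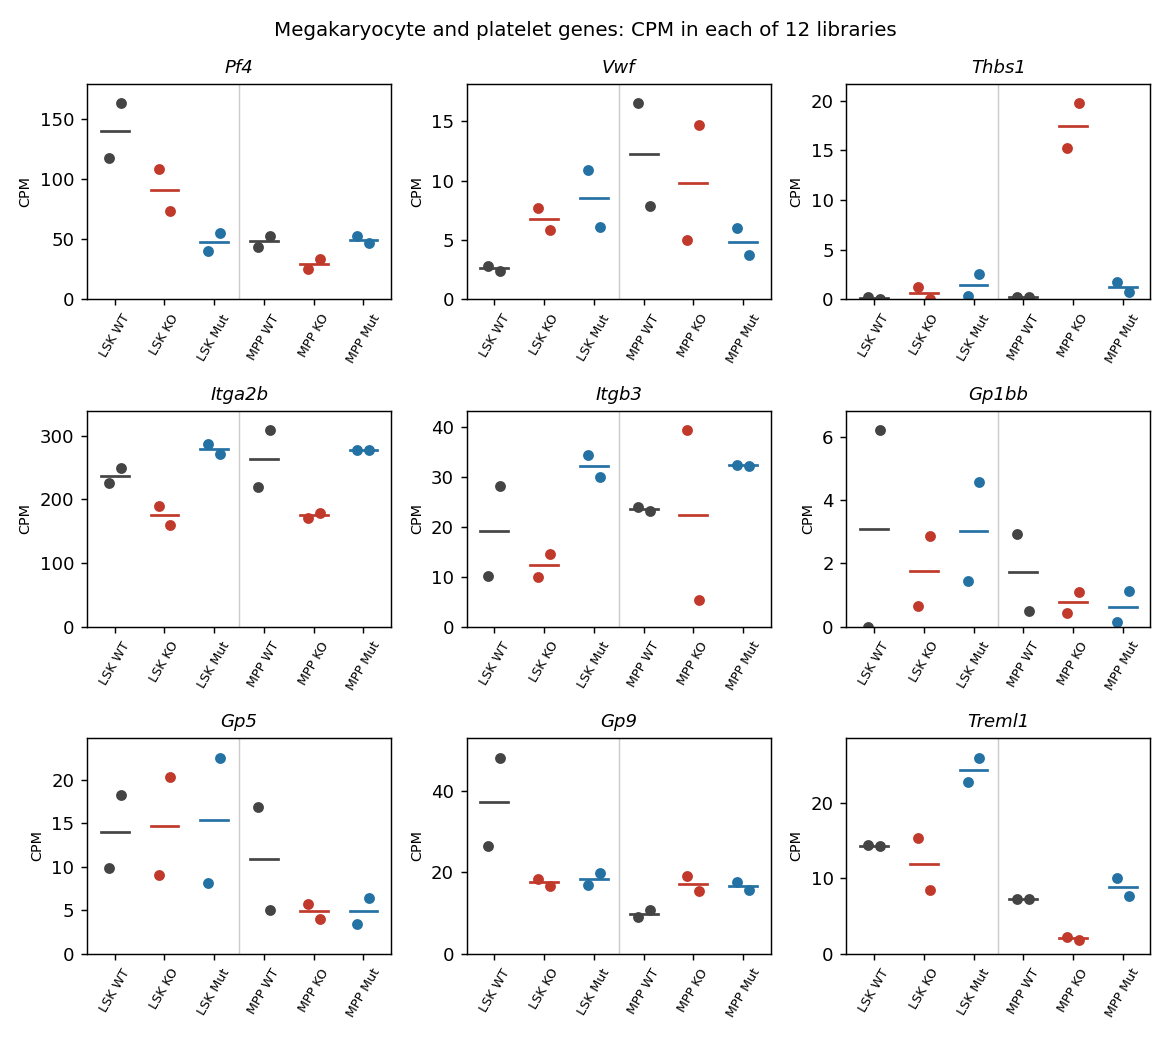
CPM of each gene in each of the 12 libraries (points, replicate 1 left of replicate 2) with the mean of each group (bar), on axes that start at 0. Itga2b shows the KO libraries of both populations below the rest, and Thbs1 shows MPP KO at 15.2 and 19.7 CPM with every other library at or below 2.59.

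The genotype comparisons asked whether loss of Tet2 (KO) and the Mut form change gene expression alike within a population. KO and Mut were compared with the same WT libraries, so these changes are not independent of each other. The threshold for a call was an adjusted p of 0.05 (edgeR quasi-likelihood test, Benjamini-Hochberg over all genes tested), and all 9 genes passed the filter on low counts in each fit. Such changes in bulk RNA cannot tell fewer cells of a type from less RNA per cell.

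In MPP KO against WT, Thbs1 rose. It had 460 counts in KO and 5 in WT, a log2 change of 6.39 (SE 0.884, edgeR adjusted p = 0.0283), with a ratio of counts per library size of 87.1 (95% exact Poisson interval 37.1 to 269.6, counting error only). This was 1 of 9 members called, and 0.363% of all 12947 genes tested were called. Leaving out any of the 4 libraries compared ended the call (highest adjusted p = 0.312) but not the difference (log2 6.19 to 6.56).

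Of the other members in MPP KO against WT, those following were picked after their values were seen, and none passed the threshold. Itga2b was 1.51-fold lower (log2 -0.59, SE 0.157, adjusted p = 0.281), Treml1 3.50-fold lower (log2 -1.81, SE 0.649, adjusted p = 0.489) and Pf4 1.64-fold lower (log2 -0.71, SE 0.261, adjusted p = 0.496). The libraries of these 3 genes did not overlap, which 20.1% of all genes tested showed in the lower direction, and DESeq2 called Itga2b (adjusted p = 0.0346).

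Markers of other cells also differed between MPP KO and WT. The erythroid list summed to 5756 and 5807 CPM in KO against 3365 and 3740 in WT, with 6 of its 14 genes called higher and 4 at 0 counts in both groups, the globins Hba-a1, Hba-a2, Hbb-b1 and Hbb-bt. Over all 12 libraries these globins held 0, 0, 1 and 0 counts, and the reason was not tested. The macrophage and monocyte list summed to 2059 and 2118 CPM in KO and 2145 and 2168 in WT. The 1 gene of its 10 that was called, Vcam1, an adhesion molecule of macrophages and stroma, was lower in KO, at 41.4 and 33.0 CPM against 111 and 94.8 (log2 -1.47, SE 0.226, adjusted p = 0.0460). Adgre1, which marks mature macrophages, averaged 19.7 CPM in KO and 8.10 in WT, and Cd68, a lysosomal protein of macrophages, 29.3 and 39.2. C1qa, C1qb and C1qc, complement genes of macrophages, were at 0 counts in MPP WT and averaged 0.591 to 2.51 CPM in KO. The endothelial and stromal list summed to 94.2 and 110 CPM in KO and 93.3 and 102 in WT, most of it from Pecam1 (means 78.2 and 86.4), and 0 of its 8 tested genes were called by edgeR, with 2 at an unadjusted p below 0.05 and a median change of 0.99 (log2). Its endothelial receptors were higher in KO in both libraries, Tek at 3.38 and 4.52 CPM against 0 and 0.200 and Kdr at 1.91 and 4.05 against 0.533 and 0. Plvap, an endothelial membrane protein, averaged 9.90 CPM in KO and 5.23 in WT, and Cdh5, an endothelial cadherin, 0.0390 and 0.200. The part of these cells in the levels of Thbs1, Itga2b, Treml1 and Pf4 was not tested.

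MPP Mut against WT gave 0 of 9 members called by edgeR and 0 by DESeq2, with 1 of 9 at an unadjusted p below 0.05, where 0.224% of all genes were called and 9.75% were below the unadjusted threshold. That member was Thbs1, with 51 counts in Mut and 5 in WT (log2 2.63, SE 0.818, adjusted p = 0.352). Gp9 was 1.68-fold higher (log2 0.75, SE 0.377, adjusted p = 0.580). Under spike-in scaling, which moved the median of all genes by -0.59, the change of Gp9 was 0.16 and that of Thbs1 2.08. Changes under this scaling are not given here for the other members. Itga2b, Pf4 and Treml1, named above as lower in MPP KO, averaged 278, 49.7 and 8.85 CPM in Mut against 264, 48.4 and 7.28 in WT on TMM scaling. Markers of other cells moved in Mut too. The erythroid list summed to 4625 and 4831 CPM, with 3 genes called higher. The neutrophil list summed to 1071 and 1075 CPM against 2042 and 2145 in WT, with 3 of 7 genes called lower. The endothelial and stromal list summed to 107 and 138 CPM against 93.3 and 102.5 in WT, with 0 of 8 tested genes called. Of this list Tek was at 7.69 and 5.59 CPM, and Pecam1 averaged 99.7 against 86.4 in WT and Plvap 8.45 against 5.23. Kdr was lower, at 0 against 0.266, as were Emcn at 0.858 against 1.80 and Cdh5 at 0.0987 against 0.200. Vcam1 averaged 53.7 against 103 in WT and was not called. The part of these cells in the members' levels was not tested.

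MPP KO against Mut gave 0 of 9 members called by edgeR (0.239% of all genes called) and 2 by DESeq2, with 4 of 9 at an unadjusted p below 0.05 (9.48% of all genes). Thbs1 was 13.6-fold higher in KO (log2 3.76, SE 0.738, adjusted p = 0.141, DESeq2 adjusted p = 0.000422). Itga2b was 1.59-fold lower (log2 -0.67, SE 0.157, adjusted p = 0.230, DESeq2 adjusted p = 0.00826). Treml1 was 4.25-fold lower (log2 -2.09, SE 0.652, adjusted p = 0.374) and Pf4 1.68-fold lower (log2 -0.75, SE 0.260, adjusted p = 0.424), both added after their values were seen. Under spike-in scaling, which moved the median of all genes by 0.65, the change of Itga2b was -0.02 and that of Pf4 -0.09, whereas Treml1 was at -1.45 and Thbs1 at 4.40. The neutrophil list summed to 2257 and 2308 CPM in KO against 1071 and 1075 in Mut, with 3 genes called higher in KO. The part of these cells was not tested.

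In LSK cells, 0 of 9 members were called for KO against WT by edgeR or by DESeq2, with 0.0456% of all 13170 genes called and 2 of 9 members at an unadjusted p below 0.05 (13.8% of all genes). Itga2b was 1.38-fold lower in KO (log2 -0.46, SE 0.150, adjusted p = 0.282) and Gp9 2.16-fold lower (log2 -1.11, SE 0.475, adjusted p = 0.363). Pf4, added after its values were seen, was 1.57-fold lower (log2 -0.65, SE 0.295, adjusted p = 0.394). The libraries of these 3 genes did not overlap with WT, as for 18.0% of all genes in the lower direction, and those of Vwf were above WT, as for 25.0% in the higher. With each of the 6 LSK libraries left out in turn, the change of Gp9 ran from -1.48 to -0.60 (log2). With spike-in scaling, which moved the median of all genes by 0.51, Itga2b came to 0.03, Pf4 to -0.17 and Gp9 to -0.64.

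LSK Mut against WT gave 0 of 9 members called by edgeR, where 1.28% of all genes were called, and 1 by DESeq2. That gene was Pf4, 2.98-fold lower in Mut (log2 -1.57, SE 0.301, edgeR adjusted p = 0.0570, DESeq2 adjusted p = 8.88e-05), the only member with an unadjusted p below 0.05 (19.1% of all genes). With each of the 6 LSK libraries left out in turn, the change of Pf4 ran from -1.80 to -1.30 (log2). Under spike-in scaling, which moved the median of all genes by 1.1, the change of Pf4 was -0.44 (adjusted p = 0.518). Gp9 was 2.07-fold lower (log2 -1.05, SE 0.474, adjusted p = 0.283). Its change ran from -1.42 to -0.54 (log2) with each library left out in turn and came to 0.04 under spike-in scaling. Itga2b, Itgb3, Vwf, Thbs1 and Treml1 were above WT in both Mut libraries, as 26.8% of all genes were.

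Markers of other cells and of stem cells also differed between LSK groups. The macrophage and monocyte list summed to 72.3 and 128 CPM in LSK WT, 134 to 182 in KO and 198 to 217 in Mut. Its gene Ly6c2 was at 4.75 and 16.4 CPM in WT, 81.5 and 73.1 in KO and 120 and 122 in Mut. It was called in Mut against WT (log2 3.48, SE 0.543, adjusted p = 0.0388) and carried the rise of the sum. At an unadjusted p below 0.05, 3 of the 10 genes were higher and 0 lower in KO, and likewise in Mut. Csf1r averaged 49.8, 35.2 and 49.8 CPM in WT, KO and Mut, C1qb 8.86, 9.38 and 0.513, and Cd68 17.1, 13.1 and 27.2. Nkg7, a granule protein of cytotoxic lymphocytes, was at 234 and 270 CPM in WT and 430 and 419 in Mut (log2 0.73, SE 0.127, adjusted p = 0.0476). The stem cell list summed to 2750 and 2962 CPM in WT, 3244 and 3322 in KO and 2645 and 2786 in Mut. Of its 13 genes edgeR called 0 in either comparison, with 3 higher and 5 lower at an unadjusted p below 0.05 in KO and 2 higher and 6 lower in Mut. Slamf1, which marks long-term stem cells, was at 28.1 and 41.9 CPM in WT, 1.16 and 8.98 in KO and 2.63 and 5.51 in Mut. Mecom of the same list averaged 57.9 CPM in WT, 25.7 in KO and 25.9 in Mut. Procr and Ly6a went the other way, with means of 28.8, 40.5 and 48.2 CPM and of 75.8, 156 and 124 CPM in this order. The part of these cells in the levels of Pf4, Gp9 and Itga2b in LSK was not tested.

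LSK KO against Mut gave 0 of 9 members called by edgeR (0.0607% of all genes) and 1 by DESeq2, with 2 of 9 at an unadjusted p below 0.05 (4.24% of all genes). Itga2b was 1.59-fold lower in KO (log2 -0.67, SE 0.150, adjusted p = 0.588, DESeq2 adjusted p = 0.00489). Pf4 was 1.90-fold higher in KO (log2 0.92, SE 0.297, adjusted p = 0.951). The direction of Pf4 between KO and Mut was thus opposite in the populations, higher in LSK KO and lower in MPP KO, a difference that was not tested. Under spike-in scaling, which moved the median of all genes by -0.59 in LSK, Pf4 was at 0.27 in LSK and -0.09 in MPP, and Itga2b in LSK at -1.26.

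**Figure D3:**
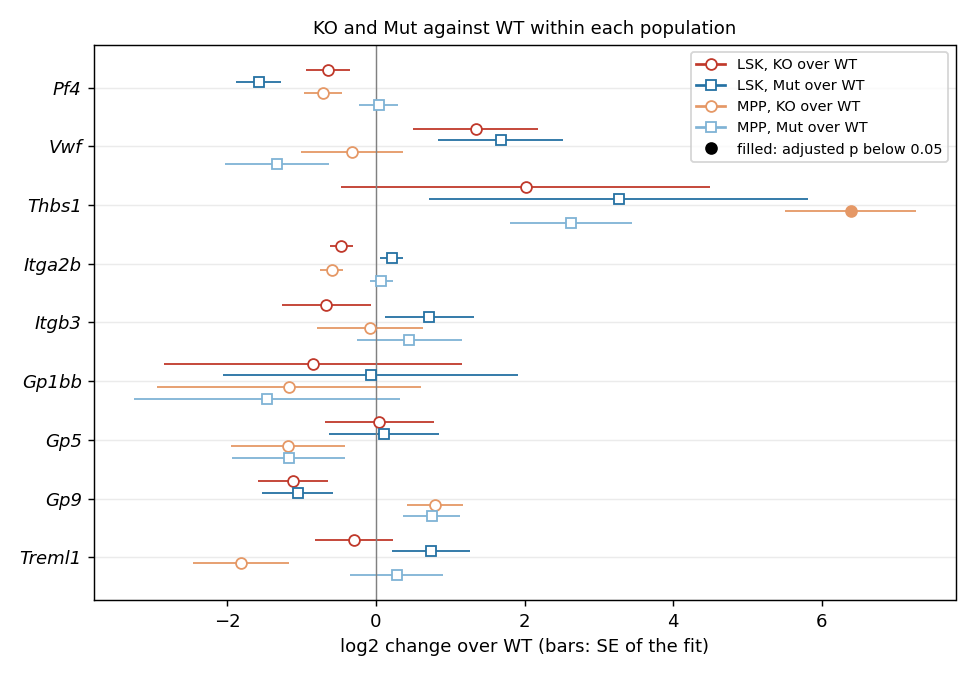
Log2 change of KO and Mut over WT in LSK and MPP cells for each gene, with the standard error of the fit as bars. The filled point, Thbs1 in MPP KO at 6.39, is the only one with an adjusted p below 0.05, and Gp1bb has the longest bars among the GPIb-IX-V genes.

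LSK against MPP asked how the stem cell fraction differs from the cells labelled MPP in a genotype. Pf4 was higher in LSK WT than in MPP WT by 2.90-fold (log2 1.54, SE 0.290, edgeR adjusted p = 0.00307) and Gp9 by 3.79-fold (log2 1.92, SE 0.438, adjusted p = 0.00864). These were 2 of 9 members called, where 24.0% of all 14033 genes were, and 3 of 9 had an unadjusted p below 0.05, where 37.1% of all genes did, so the share of the members lies near that of all genes. Pf4 kept its call without each of the 4 libraries, and Gp9 lost it without MPP WT replicate 1 (adjusted p = 0.0761) or 2 (adjusted p = 0.0526). Treml1 was 1.97-fold higher in LSK WT (log2 0.98, SE 0.519, adjusted p = 0.196) and Vwf 4.66-fold lower (log2 -2.22, SE 0.786, adjusted p = 0.0628, DESeq2 adjusted p = 0.0183). These latter members were added after their values were seen.

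In KO, Pf4 was 3.08-fold higher in LSK than in MPP cells (log2 1.62, SE 0.292, adjusted p = 0.00388) and Treml1 5.72-fold higher (log2 2.52, SE 0.550, adjusted p = 0.0108). Again 2 of 9 members were called, where 15.2% of all genes were, and 3 of 9 had an unadjusted p below 0.05, where 28.4% of all genes did. Treml1 lost its call without LSK KO replicate 1 (adjusted p = 0.101) and without MPP KO replicate 1 (adjusted p = 0.0750) or 2 (adjusted p = 0.0995). Both were called when the LSK WT libraries were left out. Thbs1, added after its values were seen, had 22 counts in LSK KO and 460 in MPP KO (log2 -4.81, SE 1.69, adjusted p = 0.0828). Without the LSK WT libraries it was called (adjusted p = 0.0433). With each of the 4 libraries compared left out in turn, its change ran from -11.0 to -3.84 (log2). The largest came without LSK KO replicate 1, where the lone LSK KO library has 0 counts.

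In Mut, edgeR called 0 of 9 members between LSK and MPP, where 8.76% of all genes were called, and DESeq2 called 1. That was Treml1 (log2 1.46, SE 0.521, edgeR adjusted p = 0.116, DESeq2 adjusted p = 0.0283), the only member with an unadjusted p below 0.05 (23.4% of all genes). Gp5 was 3.15-fold higher in LSK (log2 1.66, SE 0.797, adjusted p = 0.242). Pf4 averaged 47.9 CPM in LSK Mut and 49.7 in MPP Mut, and Itga2b 279 and 278.

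**Figure D4:**
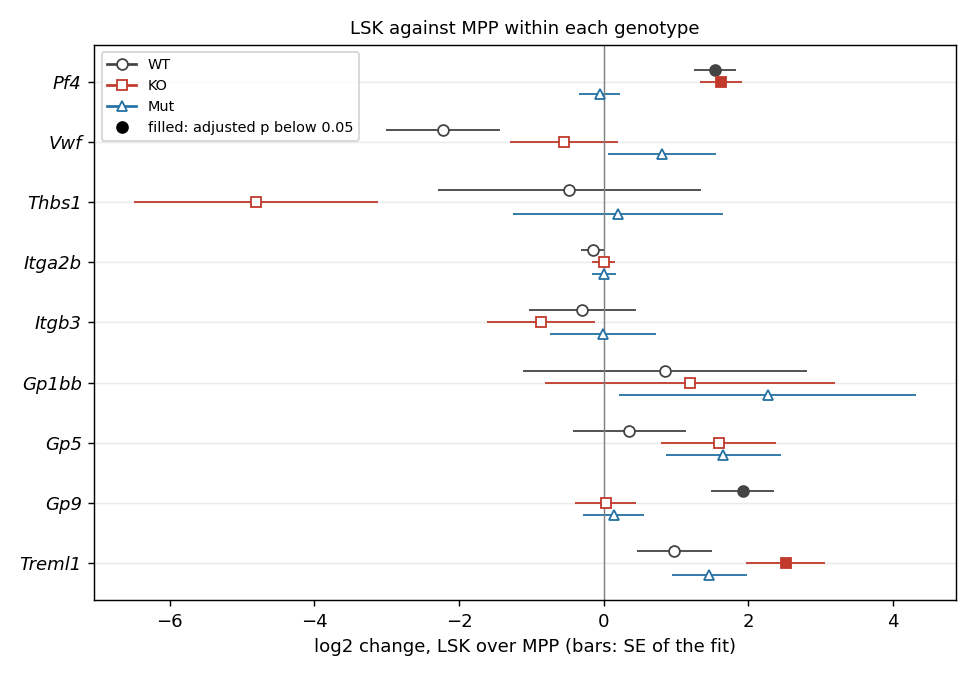
Log2 change of LSK over MPP cells in each genotype, with the standard error of the fit as bars and calls at an adjusted p below 0.05 filled. Pf4 is filled in WT and KO and lies near 0 in Mut, Gp9 is filled in WT and near 0 in KO and Mut, Treml1 is filled in KO, and Itga2b lies near 0 in all 3.

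Whether a genotype effect differed between populations was tested by an interaction term, written here as LSK minus MPP. For the effect of KO, edgeR called 0 of 9 members (0.727% of all genes) and DESeq2 called 1, with 1 of 9 at an unadjusted p below 0.05 (12.4% of all genes). That was Gp9, whose KO effect was lower in LSK by -1.89 (log2, SE 0.604, edgeR adjusted p = 0.215, DESeq2 adjusted p = 0.0365). The KO effect of Treml1 differed by 1.54 (SE 0.738, adjusted p = 0.433).

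For the effect of Mut, edgeR again called 0 of 9 members (2.53% of all genes) and DESeq2 called 2, Pf4 and Gp9, with 3 of 9 at an unadjusted p below 0.05 (17.0% of all genes). The Mut effect differed by -1.59 for Pf4 (SE 0.404, edgeR adjusted p = 0.0673, DESeq2 adjusted p = 0.00566) and by -1.78 for Gp9 (SE 0.603, adjusted p = 0.163, DESeq2 adjusted p = 0.0370). For Vwf, added after its values were seen, it differed by 3.02 (SE 1.08, adjusted p = 0.186). Each of the 8 libraries of an effect was also left out in turn. The difference for Gp9 then ran from -2.26 to -1.40 for KO and from -2.14 to -1.28 for Mut. That for Pf4 ran from -1.82 to -1.33 for Mut. These differences were not tested with spike-in scaling, which was run only within populations. There it put the Mut change of Gp9 at 0.04 in LSK and 0.16 in MPP, and that of Pf4 at -0.44 in LSK. The KO change of Gp9 in LSK came to -0.64 under it. The differences between populations given here thus hold only for scalings without the spike-ins.

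The other megakaryocyte and platelet genes, in 4 lists of 60 genes, were set beside the members. Between genotypes few passed the test. In LSK Mut against WT, 1 of 52 tested was called, Treml2, a relative of Treml1, which fell by 1.02 on the log2 scale (SE 0.144, adjusted p = 0.0313) from 233 and 233 CPM in WT to 116 and 118 in Mut. That call was lost without each of the LSK KO or Mut libraries in turn and with only the 2 groups compared. In the other 5 genotype comparisons edgeR called 0 of 51 or 52. At an unadjusted p below 0.05 were 10 of 52 in LSK KO against WT (13.8% of all genes) and 5 of 52 in LSK KO against Mut (4.24%). In MPP there were 6 of 51 in KO against WT (8.47%) and 10 of 51 in Mut against WT (9.75%). MPP KO against Mut had 12 of 51 (9.48%). DESeq2 called 1 to 4 of the lists there and 116 to 593 of all genes.

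Between LSK and MPP cells these lists divided. In WT, 18 were higher and 11 lower of 55 tested, in KO 20 and 7, and in Mut 13 and 6, where 24.0%, 15.2% and 8.76% of all genes were called. Of the receptors, 4 of 16 were higher and 2 lower in WT, 4 and 0 in KO and 3 and 0 in Mut. In WT the lower receptors were P2ry1, an ADP receptor (0 and 0.319 CPM in LSK against 20.6 and 23.0 in MPP, adjusted p = 0.000530), and Cd226, an adhesion receptor also found on lymphocytes (0 counts in both LSK libraries against 11.2 and 11.3 CPM in MPP, adjusted p = 0.0282). Selp, the adhesion receptor P-selectin of alpha granules, was higher in LSK WT (log2 6.55, SE 1.40, adjusted p = 0.00587) and LSK KO (log2 4.35, SE 1.22, adjusted p = 0.0340). Esam, an adhesion molecule of endothelium, platelets and stem cells, was higher in LSK in all 3 genotypes, in WT as a gene picked after its value was seen (log2 3.66, 6.03 and 4.03, adjusted p = 0.0283, 0.00706 and 0.0391).

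Granule and clotting genes ran the other way for most calls, with 1 higher and 5 lower of 11 tested in WT, 1 and 4 in KO and 1 and 3 in Mut. The median over the tested list was -0.91, -0.51 and -0.67 (log2) in this order, against 0.00, 0.05 and 0.03 over all genes. F13a1, a clotting factor subunit that monocytes also make, averaged 12.9, 28.8 and 37.5 CPM in LSK WT, KO and Mut against 409.5, 311 and 345 in MPP, beside the higher macrophage and monocyte markers of MPP, whose part was not tested. Clu, which encodes clusterin, was at 0.106 and 0.0797 CPM in LSK WT against 8.39 and 6.50 in MPP WT (adjusted p = 0.0111). Serpine2, a protease inhibitor, was lower in LSK by -4.01, -4.44 and -3.56 (log2, adjusted p = 0.000614, 0.000572 and 0.00275). Angpt1, the ligand of the receptor Tek, was the gene called higher in all 3 (log2 2.44, 2.12 and 1.74), named in WT after its value was seen.

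Among enzymes, cytoskeleton and signalling genes, 7 of 16 were higher and 2 lower in WT, 10 and 1 in KO and 6 and 1 in Mut. In WT the largest were Treml2 (log2 1.82), Lat, a signalling adaptor (log2 1.81), and Nbeal2, which is needed for alpha granules (log2 1.62). In KO and Mut they included Gng11, a G protein subunit (log2 1.90 and 1.97), Plek, the protein kinase C substrate pleckstrin (log2 1.53 and 1.08), and Mylk, myosin light chain kinase, at 6.05 to 9.57 CPM in these LSK libraries against at most 1.25 in MPP. Of the transcription factors, 6 of 12 were higher and 2 lower in WT, 5 and 2 in KO and 3 and 2 in Mut. Meis1, a homeobox factor of stem cells, was higher in LSK in all 3 (log2 2.69, 2.73 and 2.24), while Gata1, the main factor of erythroid and megakaryocyte cells, was lower (log2 -1.63, -2.34 and -1.88), with Gata1 in WT named after its value was seen. Zfpm1, the cofactor FOG1 of GATA factors, was higher in LSK WT (log2 2.14, SE 0.424, adjusted p = 0.00407).

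The KO effect differed between populations past the threshold for 1 of 55 genes of the lists, Srgn, the granule proteoglycan serglycin (LSK minus MPP 0.81, SE 0.151, adjusted p = 0.0434). For the Mut effect it did for 4, of which Srgn (0.87, adjusted p = 0.0156) and Mylk were higher and the transcription factors Tal1 (-1.74, SE 0.394, adjusted p = 0.0443) and Mef2c (-1.23, SE 0.276, adjusted p = 0.0429) lower. Mylk averaged 7.12 CPM in LSK WT and 7.81 in LSK Mut, against 1.40 in MPP WT and 0 in MPP Mut.

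**Figure D5:**
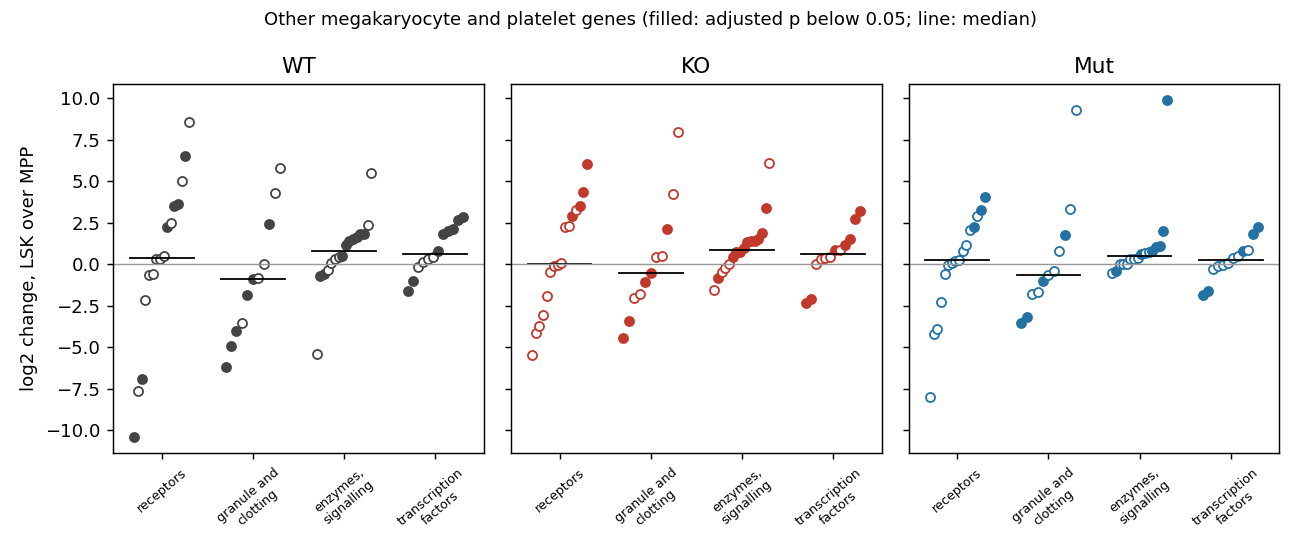
Log2 change of LSK over MPP for each tested gene of the 4 lists (points in rising order, medians as lines) in WT, KO and Mut, with calls at an adjusted p below 0.05 filled. Enzymes and signalling genes lie mostly above 0, whereas granule and clotting genes have a median of -0.91 in WT.

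The genes whose log2(CPM + 1) followed that of Itga2b most closely over the 12 libraries, among 9442 genes with a mean of at least 10 CPM, were Jchain (r = 0.907), Lamtor3 (r = 0.834) and 2610507I01Rik (r = 0.827). For Vwf they were Atg5 (r = 0.915), Susd6 (r = 0.869) and Cd47 (r = 0.841). These are descriptions over libraries that share pools, populations and the distinct LSK WT libraries.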

How the data were processed

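RNA sequencing counts of 12 libraries were analysed. Per the labels and the submitters' processing notes, Trim Galore 0.4.1 did the trimming and TopHat2 2.0.13 the mapping on mm10, and HTSeq 0.6.1 and Cufflinks are named with no role. The strand setting and gene annotation are not given in the sources used here. The authors deposited raw counts by gene symbol in a table for LSK and another for MPP, each with 24538 genes and 92 spike-ins. The MPP column headed as a second library 3 was taken as MPP KO replicate 2, whose title alone it matches.

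Counts were tested with edgeR 4.0.16 in R 4.3.3 (filterByExpr by group with minimum count 10 and total 15, TMM over genes, quasi-likelihood, two-sided). Genotypes were compared within the 6 libraries of a population (13170 genes in LSK, 12947 in MPP), and populations and effect differences in all 12 (14033 genes). CPM use the TMM factors of the 12 libraries. DESeq2 1.42.0, other scalings and filters, each library left out, a replicate block and only the groups compared were alternatives. The scripts were tested on simulated data.

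Per comparison, fitted changes are given for called members, or otherwise for the 2 members with the lowest p, and up to 3 called genes per list with the largest change were named. Members and lists were chosen with earlier results of these data known. Some list genes are not reported here by name.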

Additional observations from a re-analysis of the deposited data

How the results depend on the processing

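Of the 31 changes of members with an error and a test, over all alternatives 304 values kept direction and side of the threshold, 27 passed it anew, 10 lost it and 2 reversed. Both reversals came with spike-in scaling, Itga2b in LSK KO against WT (0.0339) and Gp9 in LSK Mut against WT (0.0409). Without the low-count filter, 1 member was called in LSK Mut against WT, 2 in MPP KO against WT, 2 in MPP KO against Mut, and 1 for the Mut effect, and of the other platelet genes 5 in LSK Mut against WT, 1 in MPP KO against WT, 2 in MPP Mut against WT, 1 in MPP KO against Mut and 2 for the KO effect. DESeq2 called 1 member in LSK Mut against WT, 1 in LSK KO against Mut, 2 in MPP KO against WT, 2 in MPP KO against Mut, 1 in LSK against MPP in Mut, 1 for the KO effect and 2 for the Mut effect, and of the other platelet genes 4, 10 and 1 in LSK KO against WT, Mut against WT and KO against Mut, 3, 3 and 2 in the same comparisons in MPP, 2 for the KO effect and 9 for the Mut effect. In LSK against MPP it called 3 members each in WT and KO. Over all genes, calls in LSK KO against WT were 6 by edgeR and 593 by DESeq2, in LSK Mut against WT 168 and 1398, and in MPP KO against WT 47 and 272. Spike-in scaling gave 1 member and 14 other platelet genes in LSK Mut against WT, 7 other platelet genes in MPP Mut against WT, and 1 member and 11 others in MPP KO against Mut, and it was not planned across populations. Size factors of DESeq2 left 0 other platelet genes for the KO effect, and the fit of only the 2 groups left 0 in LSK Mut against WT.

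Replicate numbers do not pair the samples: deviations of equal numbers correlated at -0.109 to 0.0527 across 9442 genes. With a replicate block, 0 members were called in MPP KO against WT (Thbs1 adjusted p = 0.0749), and of the other platelet genes 0 in LSK Mut against WT, 0 for the KO effect and 1 for the Mut effect.

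Leaving out 1 library at a time gave these ranges for members and for the other platelet genes. In LSK KO against WT they were 0 to 1 and 0 to 8, in LSK Mut against WT 0 to 2 and 0 to 16, in MPP KO against WT 0 to 1 and 0 to 1, and in LSK KO against Mut, MPP Mut against WT and MPP KO against Mut 0 throughout. In LSK against MPP they were 1 to 2 and 23 to 31 in WT, 1 to 2 and 19 to 21 in KO and 0 and 9 to 11 in Mut. For the KO effect they were 0 to 1 and 0 to 5 and for the Mut effect 0 to 2 and 0 to 8. The cause of these changes was not tested, and a lone library left in a group is assumed to vary like the other groups. Low counts, with libraries at or under 3, limit Gp1bb and Thbs1.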
